A study of Homo sapiens with 8 samples.

Results

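The comparison covered every gene locus expressed in undifferentiated H9 cells, an established line of human embryonic stem cells, on a soft gel of 400 Pa or on a stiff gel of 60 kPa. A locus was a member when its row carried 1 gene symbol and its level was at least 1 FPKM (fragments per kilobase of transcript, scaled to the number of mapped fragments) on at least 1 of the gels. This held for 15076 of the 33575 loci of the undifferentiated cells, with 14559 distinct symbols, and for 22.1% of the 68265 loci of the whole series. Of the members, 13219 reached 1 FPKM on both gels, 1034 on 400 Pa only and 823 on 60 kPa only. The rows left out included 3516 without a gene symbol and 1325 that merged several genes. At the edge of the rule, PTPRE was just inside at 0.140 FPKM on the soft gel and 1.0003 on the stiff gel, and USP43 was just outside at 0.997 and 0.581 FPKM.

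The series holds 8 libraries in 4 groups of 2, on both gels before induction (day 0) and on both gels after 3.5 days of differentiation (day 3.5). All groups were H9 cells on gels with feeder-conditioned medium; the day 0 groups were undifferentiated, and the day 3.5 groups had received bFGF, Activin, VEGF and BMP4. The material and coating of the gels are not given in the labels. The authors gave 1 FPKM per gene and group, pooled over the 2 libraries, so that no library can be shown on its own and read depth is unknown. Whether the libraries of a group were separate cultures is not in the labels, and the authors' p-values then measure only the spread between libraries, which may be technical.

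Human embryonic stem cells grow as tightly joined epithelial colonies that attach through integrins, and actin filaments and non-muscle myosin pull on these attachments. Cells on a stiff surface can build more tension, and the free pool of monomeric actin then shrinks. Serum response factor (SRF) with its MRTF cofactors, and YAP and TAZ with the TEAD factors, are known to read this state and to drive genes for actin, for filament-binding proteins and for matrix. The same cells depend on FGF and Activin signals to stay undifferentiated, and BMP signals move them towards extraembryonic and mesodermal fates.

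The labelled state was checked against marker genes. All 9 markers of undifferentiated cells were above 1 FPKM, with a summed level of 1889 FPKM on 400 Pa and 2058 on 60 kPa. POU5F1, NANOG and SOX2, the core pluripotency factors, were at 339.8 and 409, at 16.7 and 24.9, and at 114 and 116 FPKM. None of 6 neuroectoderm markers and none of 5 fibroblast markers reached 1 FPKM on either gel, and SOX1 and DCN were listed at 0 on 60 kPa. Of 7 mesoderm markers KDR alone reached it (9.07 and 13.5 FPKM), and of 5 endoderm markers AFP alone (8.43 and 14.4 FPKM). Of 5 amnion and trophoblast markers KRT7 (10.7 and 6.62 FPKM) and TFAP2A (2.41 and 0.465 FPKM) did, and the summed level was 14.04 FPKM on 400 Pa and 7.24 on 60 kPa. In the wider gene lists, 6 of 16 fibroblast genes and 17 of 45 neuroectoderm genes reached 1 FPKM on at least 1 gel. Among them were COL1A1 (9.32 and 8.95 FPKM) and FEZF1 (36.4 and 22.9 FPKM). The markers of undifferentiated cells were thus expressed on both gels, and silence of the few other markers does not extend to their whole lists.

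Most loci had nearly the same level on both gels. Change is given throughout as log2((FPKM on 400 Pa + 1) / (FPKM on 60 kPa + 1)), with positive values for the soft gel, and the added 1 understates the change of low genes. The median change over the members was 0.02, and 84.9% of them lay within 0.5 of 0. Changes ran from -0.61 at the 5th percentile to 0.69 at the 95th, with 8142 members above 0 and 6934 below. In the authors' deposited table, 21 of the 14641 members tested had q below 0.05 (0.143%): 11 on the soft side (0.0751%) and 10 on the stiff side (0.0683%). These 21 are called below. The authors' deposited table had an unadjusted p below 0.05 for 277 of the tested members (1.89%), 140 higher on 400 Pa (0.956%) and 137 higher on 60 kPa (0.936%). All 21 calls carried the smallest p in the authors' deposited table, 5e-05, with q = 0.0390, and the next q was 0.0696.

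A change of at least 1 in size was found for 838 members (5.56%), 452 of them higher on 400 Pa (3%) and 386 on 60 kPa (2.56%). A member listed at 0 on 1 gel reaches that size by the rule itself, and 495 of the 838 were of this kind. The other 343 were above 0 on both gels, with 212 higher on 400 Pa and 131 on 60 kPa. Among genes that neither are nor hold a small RNA gene, the middle 80% of changes spanned -0.47 to 0.55 at 1 to 2 FPKM and -0.22 to 0.19 at 100 FPKM and over. Median changes per chromosome lay between -0.02 (chromosome 13) and 0.08 (chromosome 22).

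**Figure D1:**
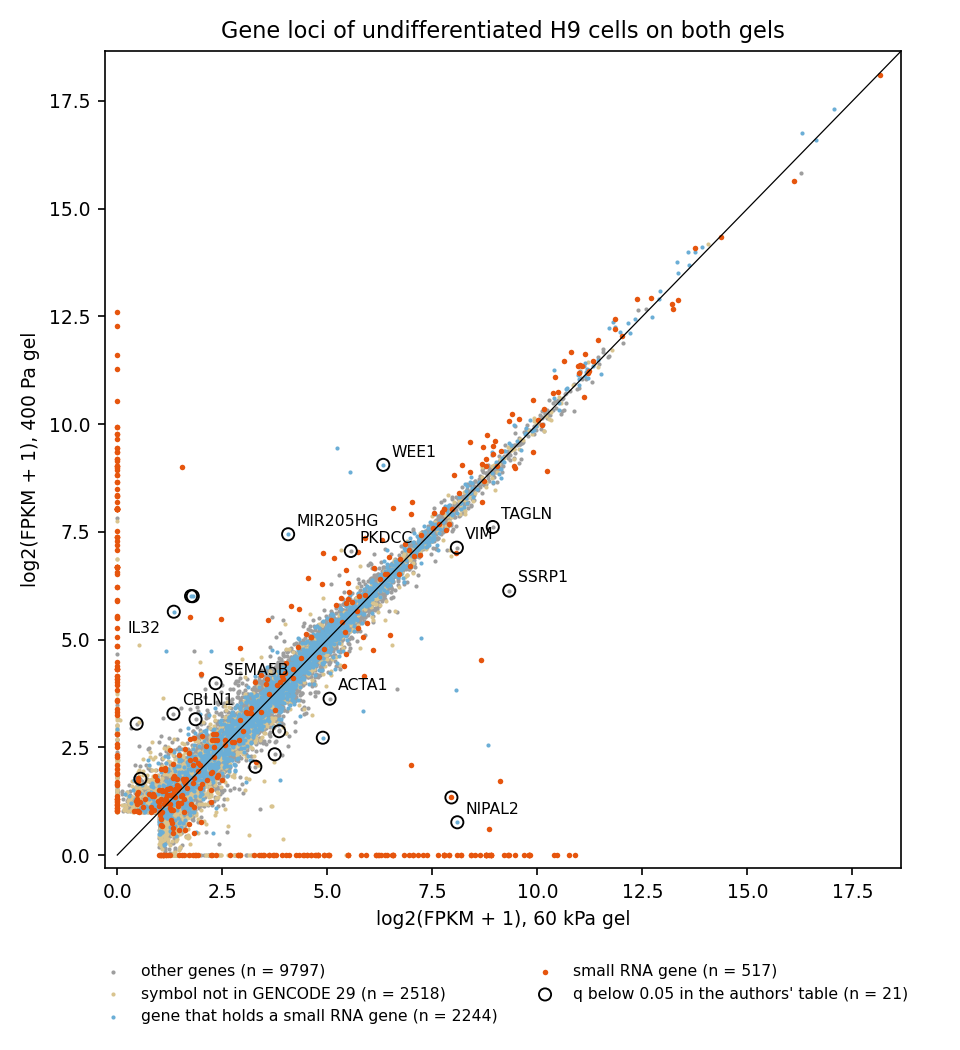
Level of each of the 15076 gene loci on the 60 kPa gel (horizontal axis) and the 400 Pa gel (vertical axis), both as log2(FPKM + 1), coloured by whether the gene is or holds a small RNA gene; circles mark the 21 loci with q below 0.05. Most loci lie along the diagonal, and small RNA genes line both axes, where a gel is listed at 0.

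The called loci fell into 2 kinds (the plot of called loci by level). Of the 21, 13 were genes without a small RNA gene inside them, 6 higher on the soft gel and 7 on the stiff gel, while 1 was a small RNA gene and 7 held one. The first kind is described next. The called genes included ACTA1, TAGLN, VIM, GCNT4, AK4 and SSRP1 on the stiff gel, and were on the soft gel TFAP2A, PRTG, PKDCC, SEMA5B, CBLN1 and GRM7. The standard error (SE) beside a change was derived by dividing the authors' log2 ratio by their test statistic, which is approximate and holds for the ratio without the added 1. Its median over the 21 calls was 0.50.

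**Figure D2:**
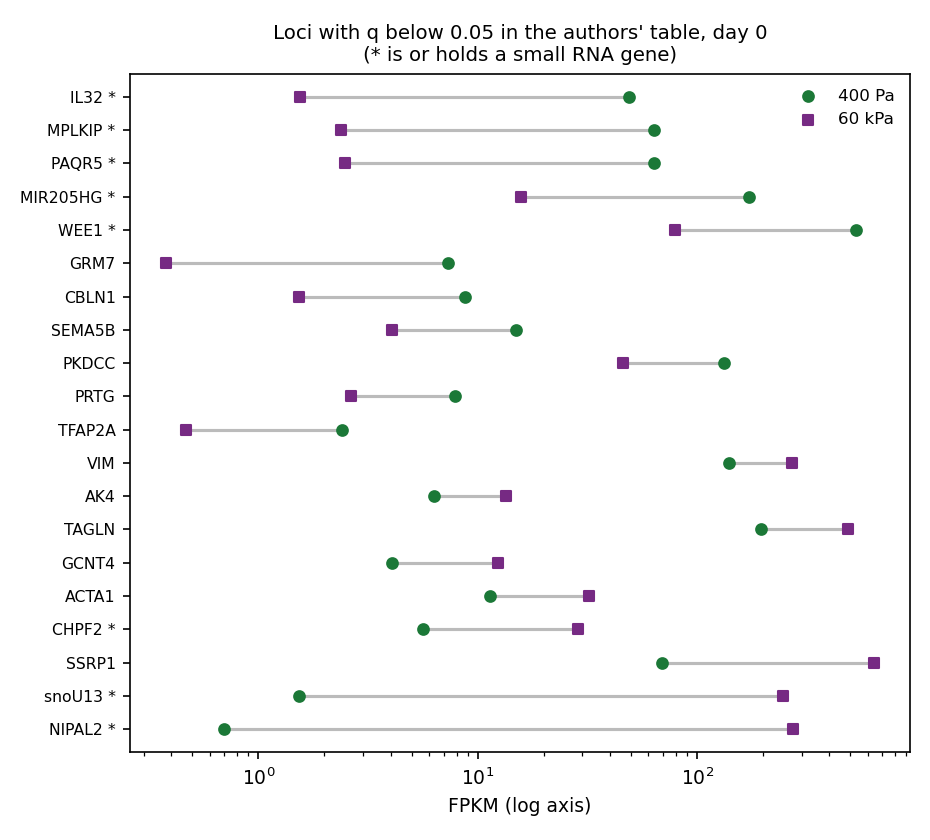
FPKM (horizontal axis, log scale) of 20 of the 21 loci with q below 0.05 in the authors' deposited table, on the 400 Pa gel (circles) and the 60 kPa gel (squares), ordered by change; an asterisk marks a small RNA gene or a gene that holds one. The 8 marked loci stand at both ends of the order and the 12 others in the middle, apart from SSRP1 at 69.3 and 642 FPKM.

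Genes of muscle-type thin filaments were among those higher on the stiff gel. The list of these actins, tropomyosins, calponins and troponins had 21 measured members, of which 16 were below 0 and 5 above, with a median of -0.21 against 0.02 for all members. ACTA1, the skeletal muscle alpha-actin (authors' locus chr1:229566992-229569845 on hg19), was at 11.4 FPKM on the soft gel and 32.2 on the stiff gel, a change of -1.43 (SE 0.41), and was called. TAGLN, the actin-binding protein transgelin, was at 195 and 489.6 FPKM, a change of -1.33 (SE 0.43), and was called as well. These are 2 calls among 21 genes, both higher on 60 kPa, beside 0.0683% of all members tested for that side. ACTC1, the cardiac alpha-actin, was at 7.49 and 17.7 FPKM (change -1.14, SE 0.73), with an unadjusted p of 0.0182 in the authors' deposited table. In such bulk samples, fewer cells that express a gene and less RNA of it per cell cannot be told apart.

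The remaining thin filament genes were spread around smaller values. MYL9, a regulatory myosin light chain of smooth muscle, was at 27.0 and 45.5 FPKM, and CNN1, a calponin, at 18.6 and 24.9 FPKM. The change was -0.73 for MYL9 and -0.40 for CNN1. TPM2, a tropomyosin, was nearly level at 99.7 and 104 FPKM, and TNNT1 and MYLK lay on the other side of 0 with changes of 0.30 and 0.41. The ubiquitous actins ACTB (1652 and 1624 FPKM) and ACTG1 (1022 and 1119 FPKM) had changes of 0.02 and -0.13. The coding sequences of the actin genes are close to each other, so reads may be split among them in a way that was not tested; ACTA2, the smooth muscle actin, was at only 0.313 and 1.07 FPKM.

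Actin genes are classic targets of SRF, which binds the CArG box, and the upstream sequences of 4 of them are shown because they hold this motif while their levels on the gels differ in pattern. Each run is the 150 bases before the gene start on the gene's strand, from RefSeq on GRCh38.p14, with CArG boxes in capitals.
ACTA1: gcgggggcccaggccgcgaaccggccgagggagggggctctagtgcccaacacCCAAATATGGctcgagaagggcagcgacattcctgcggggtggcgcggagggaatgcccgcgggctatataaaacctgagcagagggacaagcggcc
ACTC1: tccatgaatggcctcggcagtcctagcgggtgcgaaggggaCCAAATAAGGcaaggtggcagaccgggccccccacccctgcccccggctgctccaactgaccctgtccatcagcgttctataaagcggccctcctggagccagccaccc
ACTG2: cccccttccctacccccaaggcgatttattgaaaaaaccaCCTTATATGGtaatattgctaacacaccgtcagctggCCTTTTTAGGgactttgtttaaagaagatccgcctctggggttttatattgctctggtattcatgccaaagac
ACTG1: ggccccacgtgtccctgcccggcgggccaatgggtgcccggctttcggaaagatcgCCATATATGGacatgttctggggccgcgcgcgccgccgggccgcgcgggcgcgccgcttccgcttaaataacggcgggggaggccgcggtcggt

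These runs are chr1:229434095-229434244 (minus strand), chr15:34795550-34795699 (minus strand), chr2:73892858-73893007 (plus strand) and chr17:81512800-81512949 (minus strand). The box begins 97 bases before the start of ACTA1, 109 before that of ACTC1 and 94 before that of ACTG1, and ACTG2 has boxes 110 and 73 bases before its start. ACTC1 has 3 promoters in the RefSeq table, and the run is the one with the box. ACTG2, the enteric smooth muscle actin, was low on both gels at 1.05 and 2.30 FPKM, and ACTG1 was among the most abundant actins with a change of -0.13. A CArG box on either strand was found in 1.29% of the 35116 promoters of 300 bases (250 before to 50 after the start). Counted by gene, 1.60% of the 27305 genes with a promoter had a box in at least 1 of them. Of the 21 thin filament genes, 17 had a promoter in the table and 7 of these had a box: ACTA1, ACTC1, ACTG2, CNN2, TPM4, MYL7 and MYLK, whose changes ran from -1.43 to 0.41. TAGLN and MYL9 were among the genes without a promoter there, so they were not searched for a box. A match of letters is a description and does not show binding.

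The wider list of SRF and MRTF targets did not move as a group. Of 23 measured members 9 were above 0 and 14 below, with a median of -0.06, and TAGLN was its 1 call. SRF itself was at 12.4 FPKM on the soft gel and 12.2 on the stiff gel. VCL, the focal adhesion protein vinculin, was at 80.6 and 102 FPKM, and CYR61, a matricellular protein, at 5.30 and 7.08 FPKM. Neither was called in the authors' deposited table.

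Annexins and caveolins bind the inner face of the plasma membrane or shape it. Their list, which also holds S100 proteins and galectin-1, had the largest count of small p-values on the stiff side among the lists compared. In the authors' deposited table, 7 of the 25 measured members had an unadjusted p below 0.05 and were higher on 60 kPa, and none was so on 400 Pa, beside 0.936% of all members tested for the stiff side. The median change was -0.18, 15 members were below 0 and 10 above, and none was called. CAV1, the coat protein of caveolae, was at 6.10 and 15.1 FPKM, a change of -1.18 (SE 0.70). Its partner CAV2 was at 1.13 and 4.11 FPKM (-1.26). ANXA1 was at 12.7 and 25.4 FPKM (-0.94, SE 0.43). S100A10, which forms a complex with annexin A2, was at 19.1 and 38.6 FPKM (-0.98, SE 0.53), and LGALS1, galectin-1, was at 19.9 and 37.5 FPKM (-0.88, SE 0.74). ANXA3 (25.6 and 44.9 FPKM) and S100A11 (77.3 and 112 FPKM) completed the 7; CAV2, ANXA3 and S100A11 were named after their values were seen. PTRF and PRKCDBP, the cavin coat proteins, were at 12.3 and 11.1 and at 15.2 and 13.5 FPKM, with changes of 0.14 (SE 0.38) and 0.16 (SE 0.51) that are smaller than their errors.

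**Figure D3:**
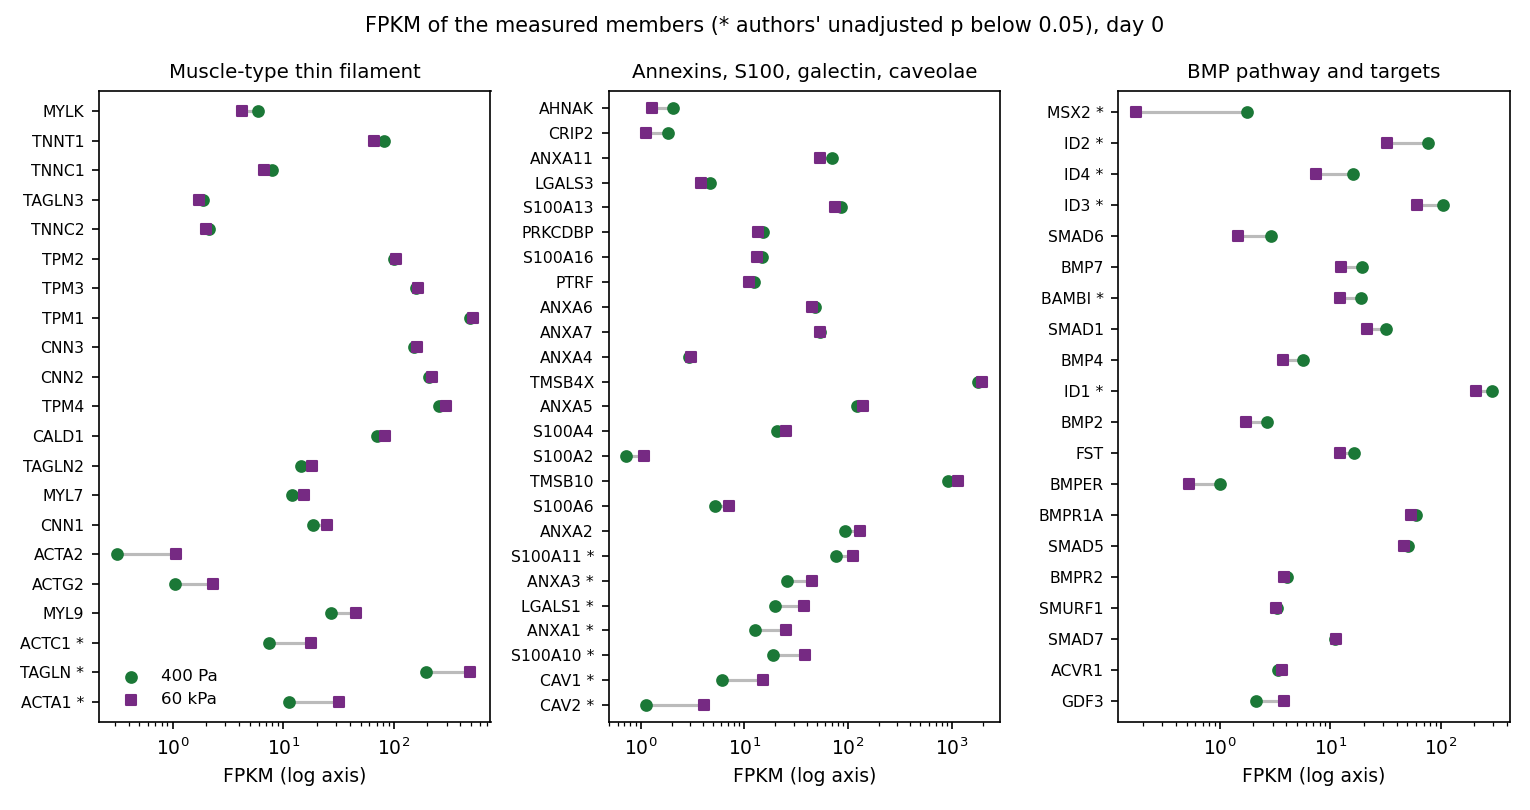
FPKM (horizontal axes, log scale) of the measured genes of 3 lists on the 400 Pa gel (circles) and the 60 kPa gel (squares), ordered by change, with an asterisk where the unadjusted p in the authors' deposited table was below 0.05. Asterisks stand at the stiff-gel end for thin filament genes (3 of 21) and annexins, S100 proteins and caveolins (7 of 25), and at the soft-gel end for BMP genes (6 of 20).

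VIM, the intermediate filament protein vimentin (authors' locus chr10:17256238-17279634 on hg19), was at 139 FPKM on the soft gel and 270.2 on the stiff gel, a change of -0.95 (SE 0.31), and was the only call among 14 intermediate filament and lamin genes. The epithelial keratins KRT8 (97.3 and 105 FPKM) and KRT18 (63.2 and 73.7 FPKM) had changes of -0.11 and -0.22. LMNA, the A-type lamin of the nuclear envelope, was level at 19.3 and 19.2 FPKM. Among cell junction genes, CDH2, N-cadherin, was at 12.8 and 26.4 FPKM (-0.99, SE 0.56) and CDH1, E-cadherin, at 164 and 124 FPKM (0.40, SE 1.25). CDH6, another classical cadherin, was at 15.3 and 6.37 FPKM (1.15, SE 0.66), and CTNND2, delta-catenin 2, at 5.99 and 2.24 FPKM (1.11, SE 1.01). The unadjusted p in the authors' deposited table was 0.0067 for CDH2, 0.00395 for CDH6 and 0.0234 for CTNND2, and none of the 30 junction genes was called.

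Matrix protease genes had 19 of 25 members below 0 and a median of -0.22. PLAU, the protease urokinase, was at 9.30 and 14.6 FPKM (-0.60, SE 0.41), and PLAT, the tissue-type activator of plasminogen, at 2.55 and 5.09 FPKM (-0.78), with unadjusted p = 0.0203 for PLAU in the authors' deposited table and no call for either. Interstitial matrix genes were balanced, with 16 of 32 above 0 and a median of 0.02. At the stiff end of that list stood COL5A2 (8.43 and 19.6 FPKM, -1.12, SE 0.49) and COL12A1 (2.11 and 6.84 FPKM, -1.33, SE 0.94), both fibrillar or fibril-associated collagens. COL5A2 shared the lowest q above the threshold in the authors' deposited table, 0.0696, with TSTD3, a gene outside the lists that was named after its values were seen (4.88 and 455 FPKM). FN1, fibronectin, was at 18.4 and 27.7 FPKM (-0.57, SE 0.74).

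Integrin and basement membrane genes had no call and no unadjusted p below 0.05 in the authors' deposited table. The 14 integrins had a median of -0.13, with ITGB5 at 108 and 149 FPKM, ITGB1 at 99.4 and 122 and the laminin receptor subunit ITGA6 at 65.5 and 65.8. Basement membrane genes (19, median -0.15, and 0.07 with a minimum of 5 FPKM) went both ways. LAMA5 (15.2 and 8.83 FPKM, 0.72) and LAMB1 (31.3 and 19.1 FPKM, 0.69), laminin chains, lay on the soft side, and LAMC1, the gamma chain they share, on the stiff side at 27.1 and 33.2 FPKM (-0.29). The 30 focal adhesion genes had a median of -0.09 and no call.

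Genes of the YAP and TAZ pathway and their targets were nearly level. The 20 pathway genes and the 18 targets both had a median of -0.03, and neither list had a call. YAP1 was at 20.3 FPKM on the soft gel and 18.7 on the stiff gel, and WWTR1, which encodes TAZ, at 3.66 and 6.21 FPKM. The targets CTGF (16.4 and 19.8 FPKM, change -0.25, SE 0.36) and CYR61 (change -0.36, SE 0.56) had errors larger than their changes. AMOTL2, an angiomotin that is both a target and an inhibitor of YAP, was at 10.1 and 16.2 FPKM (-0.63, SE 0.54), with unadjusted p = 0.031 in the authors' deposited table. The channel genes PIEZO1 (9.44 and 7.20 FPKM) and PIEZO2 (5.20 and 8.08 FPKM), which open under membrane tension, had changes of 0.35 and -0.55 and no call.

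On the soft side, the BMP list had the highest median among lists with at least 10 measured genes, 0.46, with 17 of 20 members above 0. In the authors' deposited table, a total of 6 of the 20 had an unadjusted p below 0.05 on the soft side, beside 0.956% of all members tested, and none on the stiff side; none was called. All 4 ID genes, inhibitors of helix-loop-helix factors and direct targets of BMP-activated SMADs, were among them. ID2 was at 77.4 FPKM on the soft gel and 32.9 on the stiff gel (1.21, SE 0.51), and ID4 at 15.9 and 7.46 (0.999, SE 0.47). ID3 was at 106 and 61.2 FPKM (0.78, SE 0.40) and ID1, the most abundant, at 291 and 207 (0.49, SE 0.32). The order of the fold from ID2 to ID1 is thus not the order of the levels. BAMBI, a decoy receptor induced by BMP, was at 18.8 and 12.3 FPKM (0.57, SE 0.41), and MSX2, a homeobox target named after its values were seen, at 1.76 and 0.174 FPKM.

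The upstream members of the pathway had changes that overlapped those of the targets above. The ligands BMP7 and BMP4 were at 19.5 and 12.5 and at 5.61 and 3.69 FPKM, with changes of 0.60 and 0.49. The transducer SMAD1 was at 31.9 and 21.3 FPKM (0.56), and SMAD5 at 50.8 and 46.5 FPKM (0.13). The receptor BMPR1A was at 60.2 and 53.8 FPKM (0.16), and the inhibitory SMAD7 at 11.04 and 11.3 FPKM (-0.03). Of the 20 genes, 3 were below 0, with GDF3 the lowest at 2.14 and 3.84 FPKM. Ligands and receptors were thus measured on both gels. None of these ligands and SMADs, nor the receptor BMPR1A, had an unadjusted p below 0.05 in the authors' deposited table.

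The list of amnion and trophoblast genes had 9 measured members with a median of 0.28. TFAP2A, a transcription factor of surface ectoderm, neural crest and trophoblast, was at 2.41 FPKM on the soft gel and 0.465 on the stiff gel and was called in the authors' deposited table with a statistic of -1.20. This statistic is smaller in size than the value that its p would need under a normal distribution. The implied SE was 1.98 beside a log2 ratio of 2.37 without the added 1, and the change with the added 1 was 1.22. TFAP2C, a related factor, was at 5.76 and 3.10 FPKM (0.72), and IGFBP3, an IGF-binding protein, at 7.99 and 3.32 FPKM (1.06), with unadjusted p-values of 0.0116 and 0.00085 in the authors' deposited table. GATA3 was at 0.647 and 0.0190 FPKM, below the limit of 1 on both gels. The share of cells that carried these transcripts was not tested.

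**Figure D4:**
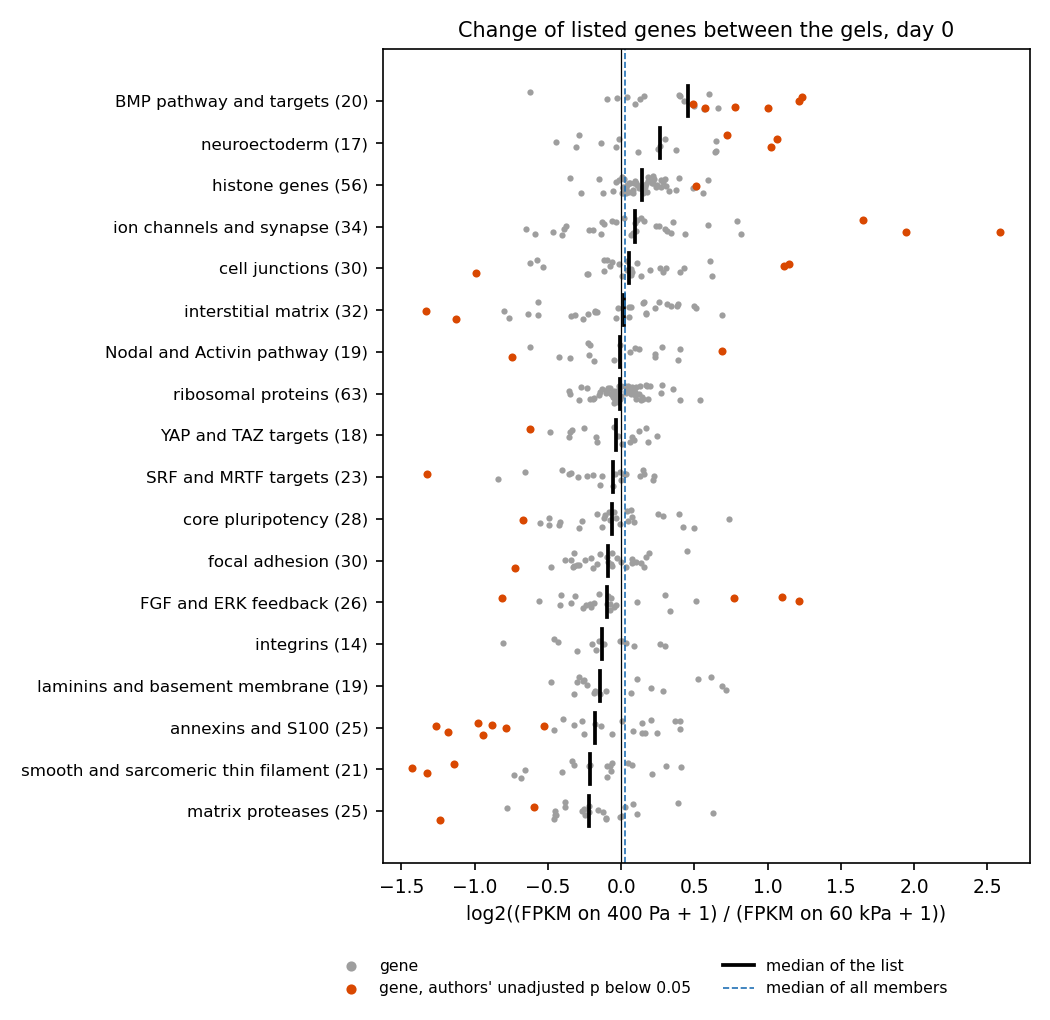
Change of each measured gene (points) in 18 gene lists, with the number of genes in parentheses, on the scale log2((FPKM on 400 Pa + 1) / (FPKM on 60 kPa + 1)); coloured points have an unadjusted p below 0.05 in the authors' deposited table, bars are list medians and the dashed line is the median of all members, 0.02. Medians of these 18 lists run from -0.22 for matrix proteases to 0.46 for the BMP list, and some lists not drawn lie beyond both ends.

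In a list of 34 measured ion channel, synapse and axon guidance genes, 3 were called and all were higher on 400 Pa, beside 0.0751% of all members tested for that side. No other of the 54 lists had more than 1 call on the soft side. SEMA5B, a semaphorin that guides axons, was at 14.9 and 4.06 FPKM (1.65, SE 0.57). CBLN1, the secreted synapse organiser cerebellin 1, was at 8.72 and 1.53 FPKM (1.94, SE 0.81). GRM7, a metabotropic glutamate receptor, was at 7.28 and 0.377 FPKM (2.59). Its log2 ratio without the added 1 was 4.27 (SE 2.66), so its call rests on a small statistic (-1.61 in the authors' deposited table). The median of the list was 0.10, with 21 genes above 0 and 13 below.

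Outside these lists, 2 further genes were called on the soft gel. PKDCC, a secreted tyrosine kinase, was the most abundant of the soft-gel calls without a small RNA gene, at 132 FPKM on the soft gel and 46.1 on the stiff gel (change 1.498, SE 0.44). PRTG, protogenin, a cell-surface protein of the early neural tube, was at 7.89 and 2.64 FPKM (1.29, SE 0.66). Among early neuroectoderm genes 11 of 17 were above 0 with a median of 0.27 and no call, and without a minimum level the median was -0.01. OTX2, a head organiser and primed-state factor, was at 136 and 82.2 FPKM (0.72, SE 0.38) and HESX1, a forebrain repressor, at 15.002 and 6.86 FPKM (1.03, SE 0.59), with unadjusted p-values of 0.0074 and 0.0086 in the authors' deposited table. FEZF1 (36.4 and 22.9 FPKM) and SOX21 (14.01 and 8.57 FPKM) had changes of 0.65 and 0.65. PAX6, at 0.597 and 0.167 FPKM, stayed below the limit on both gels.

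Genes of FGF signalling lay on both sides of 0. Of 26 measured, 19 were below 0 and the median was -0.09. Of the ERK feedback genes with at least 5 FPKM, the lowest changes were those of DUSP6, an ERK phosphatase, at 49.7 and 88.0 FPKM (-0.81, SE 0.45) and SPRY4, a Sprouty inhibitor, at 11.2 and 16.9 FPKM (-0.56). ETV4, an ETS factor induced by FGF, was at 16.6 and 22.3 FPKM (-0.41). The receptors FGFR3 (27.6 and 11.3 FPKM, 1.21, SE 0.79) and FGFR1 (263 and 185 FPKM, 0.51) lay on the soft side, while FGFR4 was at 14.2 and 14.97 FPKM (-0.07). So did SHISA2 (18.6 and 10.5 FPKM, 0.77, SE 0.37) and SHISA3 (13.6 and 5.80 FPKM, 1.10, SE 0.46), which retain FGF and Frizzled receptors inside the cell. Unadjusted p-values in the authors' deposited table were 0.0078 for DUSP6, 0.0132 for FGFR3, 0.0022 for SHISA2 and 0.00015 for SHISA3, and none was called.

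In the Nodal and Activin list, 9 of 19 genes were above 0 and the median was -0.01. NODAL was at 2.41 FPKM on the soft gel and 4.73 on the stiff gel (-0.75, SE 0.67), and its coreceptor TDGF1 at 188 and 254 FPKM (-0.43, SE 0.42). Of the WNT genes, the receptor FZD8 was at 7.77 and 4.53 FPKM (0.67, SE 0.43), while the antagonists SFRP1 and SFRP2 differed in sign, at 82.8 and 65.8 and at 31.4 and 44.6 FPKM. MYC, a target of several pathways, was at 11.4 and 16.6 FPKM (-0.51, SE 0.39), and TCF7L2, a nuclear effector of WNT, at 16.7 and 9.30 FPKM (0.78, SE 0.84). AXIN2, the standard reporter of WNT activity, was level at 9.69 and 10.3 FPKM. No Nodal or WNT gene was called.

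Pluripotency genes had no call. Of 28 measured, 11 were above 0, and changes ran from -0.67 (GAL, a neuropeptide, at 21.8 and 35.2 FPKM) to 0.74 (SALL1, a zinc finger factor, at 22.9 and 13.3 FPKM). For DPPA4, DNMT3B and LIN28A, abundant genes of this state, levels were 518 and 580, 423 and 402, and 304 and 248.9 FPKM. Implied SEs for POU5F1, NANOG and SOX2 were 0.32, 0.60 and 0.48 on the log2 scale, each larger than the change of its gene. The missing calls do not show that these genes had equal levels.

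Of the histone genes, 49 of 56 were above 0 with a median of 0.14, and no call. HIST1H2BH, an H2B gene, was at 999.8 and 703 FPKM (0.51, SE 0.32) and alone among them had an unadjusted p below 0.05 in the authors' deposited table (0.0215). Histone genes share near-identical sequences, so their counts may not be independent. S-phase genes had a median of 0.16 with 24 of 34 above 0, and mitosis genes a median of 0.00 with 14 of 30. CDKN1A, a cell cycle inhibitor, was at 5.19 and 9.48 FPKM (-0.76, SE 0.64), with an unadjusted p of 0.0278 in the authors' deposited table.

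Housekeeping groups were level. The 63 ribosomal protein genes had a median of -0.01, the 57 respiratory chain genes 0.03 and the 28 proteasome genes 0.01, and none of them had an unadjusted p below 0.05 in the authors' deposited table. GAPDH was at 1440 FPKM on the soft gel and 1331 on the stiff gel. Cholesterol genes (6 of 26 above 0, median -0.11) and fatty acid genes (1 of 11 above 0, median -0.24) lay on the stiff side and had none called. NQO1, an antioxidant enzyme, was at 89.9 and 141 FPKM (-0.64, SE 0.35), with unadjusted p = 0.0084 in the authors' deposited table. Of all 54 lists, 24 had a median above 0 and 30 below. The lowest median was that of the p53 targets (-0.26), with 29 of 31 genes below 0 and none called. The highest was that of the neural crest list (0.72), with only 5 measured genes.

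The remaining calls without a small RNA gene were on the stiff side. SSRP1, part of the nucleosome-handling FACT complex, was at 69.3 and 642 FPKM (-3.19, SE 0.22), the smallest implied error of all calls. Among the other 25 histone chaperone and remodeller genes no change exceeded 0.50 in size. GCNT4, an enzyme that branches O-linked glycans, was at 4.06 and 12.4 FPKM (-1.41, SE 0.52), and AK4, a mitochondrial adenylate kinase, at 6.33 and 13.4 FPKM (-0.98, SE 0.46). AK4 has a near-identical pseudogene copy, so its reads may be shared with it.

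The largest changes belonged to the other kind of locus. All 7 called hosts carry the small RNA gene within an exon of at least 1 annotated transcript (GENCODE release 29). These pairs were WEE1 with a small nucleolar RNA, MIR205HG with MIR205, CHPF2 with MIR671, IL32 with a U1 copy, NIPAL2 with a U6 copy, and MPLKIP and PAQR5 each with a Y RNA family member. Of the 2244 members that hold a small RNA gene, 324 hold one in an exon and 7 of these were called. The other 1920 hold them in introns only and none of these was called. Over all members tested the share called was 0.143%, so few calls were to be looked for among the 1920 and their absence says little. WEE1, the kinase that restrains CDK1, was at 531 FPKM on the soft gel and 79.5 on the stiff gel (2.72, SE 0.42). IL32, a cytokine gene, was at 49.1 and 1.54 FPKM (4.30, SE 1.19), and NIPAL2 at 0.694 and 272 FPKM (-7.33, SE 2.19). The table does not separate reads of the host transcript from reads of the small RNA inside it, and the strand setting of the counting is not given in the sources used here, so overlapping and antisense genes cannot be told apart either.

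Small RNA genes themselves made up 517 of the members (3.43%) and 271 of the 838 members with a change of at least 1 (32.3%). Of the 517, 232 were listed at 0 on 1 gel, and the middle 80% of their changes spanned -6.55 to 6.69. The 12 highest and 12 lowest changes among loci of at least 10 FPKM were all small RNA genes listed at 0 on 1 gel, among them 13 Y_RNA loci, and 11 of the 24 were not tested by the authors. Their levels reached 6181 FPKM on 400 Pa and 1900 on 60 kPa. The call named snoU13, a small nucleolar RNA, was at 1.52 and 247 FPKM. Without genes that are or hold a small RNA gene, 13 calls and 517 changes of at least 1 were left.

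The same comparison at day 3.5, made by the authors in a separate table of other libraries, gives the values that stand beside these. By the same rule it had 15896 members, and 221 of 15485 tested were called in the authors' deposited table (1.43%), on the soft side 185 (1.19%) and on the stiff side 36 (0.232%). The thin filament list had 18 of 22 genes above 0 there with a median of 0.37, against 5 of 21 at day 0. The annexin and S100 list had 18 of 26 above 0 with a median of 0.54 and 6 calls, all on the soft side. The neuroectoderm list had 20 of 28 below 0 and 8 calls on the stiff side. The BMP list kept a positive median, 0.73, with 7 calls on the soft side. Differences between the days were not tested for lists.

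For single genes, the difference between the 2 days was tested from the deposited log2 ratios and their implied errors (two-sided normal approximation, Benjamini-Hochberg adjustment over 13237 genes), and 11 genes had an adjusted p below 0.05. Of the 18 genes called at day 0 that could be compared, 4 were among them: VIM, SEMA5B, MPLKIP and SSRP1. The 18 were chosen by their day 0 ratio, which is also part of the difference, so this choice alone can raise their share. At day 3.5, VIM was at 552 FPKM on the soft gel and 187 on the stiff gel, and SEMA5B at 2.64 and 55.0 FPKM, both on the opposite side from day 0. SSRP1 was level at day 3.5, at 65.6 and 62.4 FPKM. ANXA1 (46.8 and 10.6 FPKM at day 3.5) and HESX1 (5.11 and 45.3 FPKM) also differed between the days and lay on opposite sides. For ACTC1, at 88.3 and 8.60 FPKM at day 3.5, the adjusted p of the difference was 0.102 by the same normal approximation. Of the 18, 7 lay on the same side on both days. ACTA1 (0.441 and 1.64 FPKM at day 3.5) stayed on the stiff side, and the authors' deposited table held no call for it there.

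**Figure D5:**
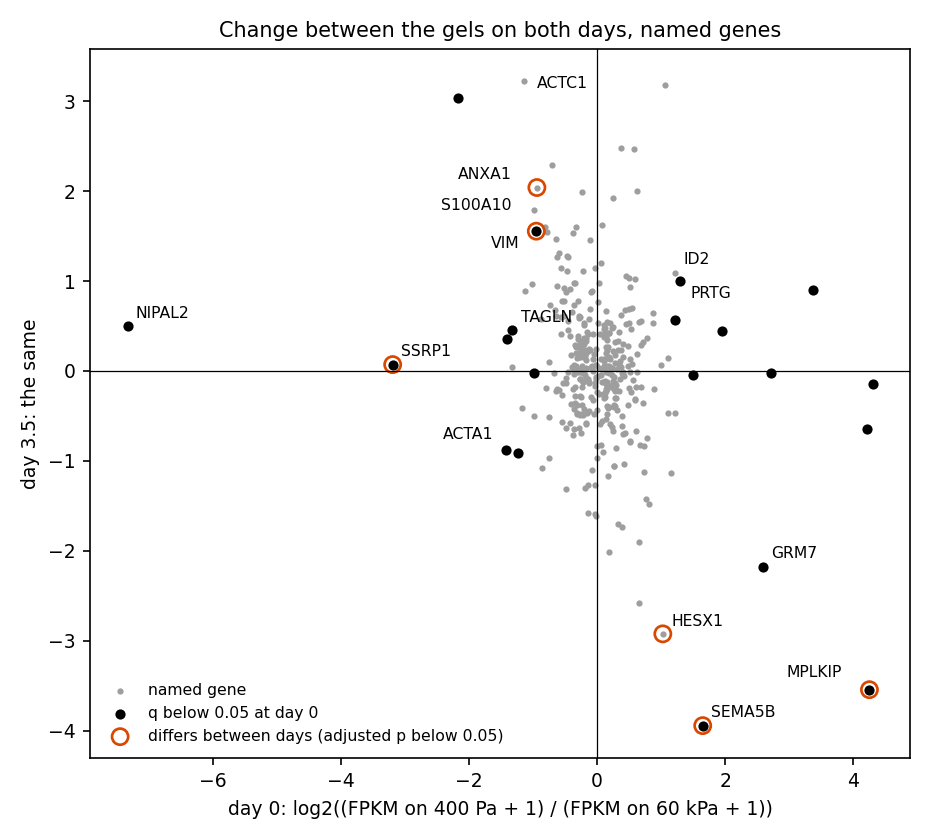
Change between the gels at day 0 (horizontal axis) and at day 3.5 (vertical axis) for the named genes that are not small RNA genes, both as log2((FPKM on 400 Pa + 1) / (FPKM on 60 kPa + 1)); black points were called at day 0 and rings mark the 6 whose difference between days had an adjusted p below 0.05. VIM and ANXA1 lie left and above 0, SEMA5B, HESX1 and MPLKIP right and below, and SSRP1 on the horizontal line.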

How the data were processed

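Total RNA of 8 libraries was sequenced. Per the submitters' processing notes, the authors used Cufflinks and hg19 for the FPKM values. Its version, the aligner, the annotation and the RNA selection were not stated in what was read here. Each deposited table gives, per locus, 1 pooled FPKM per group, a log2 ratio, a test statistic (a score), a p-value and a q-value, per the file headers. No test over libraries could be made, so calls are the authors' (q below 0.05). From the deposited FPKM, changes were computed with a pseudocount of 1; a symbol with several rows was counted in lists by its highest row. Members and lists were chosen with earlier results of these data known. Named genes were all calls, the 12 highest and 12 lowest changes at 10 FPKM or more, up to 4 per direction and list at 5 FPKM or more, and a set of genes named whatever their values; others are marked. A few items are left out of the text. GENCODE release 29 matched 83.3% of members and served for symbols and small RNA genes only. Locus coordinates are the authors' (hg19, 1-based), and a locus can reach beyond its gene: KRT8 and KRT18 shared chr12:53289961-53347588. The test between days was also run on simulated data, but the outcome is not given here and nothing is drawn from it. Alternatives were other pseudocounts, minimums, thresholds and scalings. The work used scipy 1.17.1, numpy 2.4.6 and pandas 2.3.3 under Python 3.11.15, with matplotlib 3.10.9 for figures.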

Additional observations from a re-analysis of the deposited data

Results flagged for a closer look

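The change between the gels differed between day 0 and day 3.5 for 6 of the named genes. The values below are differences of the log2 ratio of 400 Pa over 60 kPa, day 3.5 minus day 0. VIM, vimentin, went from -0.96 at day 0 to 1.56 at day 3.5, a difference of 2.515. ANXA1, annexin A1, went from -0.99 to 2.14, a difference of 3.133. SSRP1, the FACT subunit, went from -3.21 to 0.07, a difference of 3.285. HESX1, a forebrain repressor, went from 1.13 to -3.15, a difference of -4.277. SEMA5B, a semaphorin, went from 1.87 to -4.38, a difference of -6.252. MPLKIP, which holds a small RNA gene in an exon, went from 4.74 to -4.02, a difference of -8.753. By a two-sided normal approximation on errors implied by the authors' deposited tables, the p adjusted over 13237 genes was p = 0.00347 for VIM, p = 0.0088 for ANXA1, p = 1.44e-08 for SSRP1, p = 0.00546 for HESX1, p = 1.44e-08 for SEMA5B and p = 5.83e-28 for MPLKIP. The days were measured in other libraries and tabulated separately, and the part of this in the differences was not tested.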

How the results depend on the processing

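No paired analysis was possible because the deposited values are 1 pooled FPKM per group and carry no replicate numbers. For the same reason no replicate could be left out. The 21 calls became 13 without genes that are or hold a small RNA gene, 277 at an unadjusted p below 0.05 and 102 at an unadjusted p below 0.01 in the authors' deposited table. The 838 changes of at least 1 became 420 with a minimum of 5 FPKM, 517 without genes that are or hold a small RNA gene, 1412 with a pseudocount of 0.1, 333 with a pseudocount of 5, 1790 at 1.5-fold and 412 at 3-fold. Under another scaling, 15 of the 395 named genes changed sign, the largest of them with a change of 0.074, and none of the 21 called loci did. For the calls this was fixed in advance. Another pseudocount cannot change a sign, and the smallest called change, -0.95 for VIM, was far larger than the shift by rescaling. Rescaling both gels to the same sum moved the median change over all members by -0.07, from 0.02 to -0.04. The 10 highest members held 48.6% of the summed FPKM on 400 Pa and 49.7% on 60 kPa, so few loci weigh heavily in this rescaling. The calls, 11 on the soft side and 10 on the stiff side, became 6 and 7 without genes that are or hold a small RNA gene and 11 and 13 with merged rows counted. The median changed sign under at least 1 alternative for 17 of the 54 lists. The share of members above 0 left its 95% binomial interval for 3 lists: fatty acid genes (0%) and long non-coding RNAs (16.7%, from 63.0%, with a median of -0.55 in place of 0.14) without genes that are or hold a small RNA gene, and respiratory chain genes (50.9%) relative to the median member. The interval treats the genes of a list as independent, which they may not be, so it serves only as a yardstick. The 1 fatty acid gene above 0, FADS3, holds a small RNA gene, and its removal alone gave 0%. Depth is unknown, so its effect on low genes cannot be given.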
